A study of Mus musculus with 2 samples.

Results

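The 38 genes described here are expressed when a cell copies its DNA or divides, and they were read in single nuclei of the injured mouse periosteum to see which lineages held dividing cells. They were taken by symbol, 13 genes of S phase and 25 genes of G2 and M phase, out of 32285 genes in the table. Their unique molecular identifiers (UMIs, each standing for 1 captured RNA molecule) were summed in every nucleus of the day 5 library, and the sums were compared between populations that had been named from markers outside the 38 genes.

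A cell that leaves rest first passes a G1 checkpoint, where D-type cyclins with CDK4 or CDK6 release E2F factors from the retinoblastoma proteins. E2F targets then supply the replication machinery of S phase. A later wave of genes, many of them bound by the DREAM and MuvB complexes at CHR and CCAAT elements, builds the spindle, the kinetochores and the cleavage furrow of mitosis. In bone repair, skeletal stem/progenitor cells of the periosteum, endothelial cells, myogenic progenitors and cells of the blood lineages are all known to be able to divide.

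Single-nucleus RNAseq was performed on 2 libraries from mice labelled C57BL6 (the study's methods list C57BL/6ScNj), 10 to 14 weeks of age, males and females mixed. The day 5 library came from periosteum and callus 5 days after a musculoskeletal traumatic injury (MTI), in which an open, non-stabilized fracture of the tibia was combined with a crush of the muscles around it. The day 1 library came from periosteum and hematoma 1 day after the tibial fracture without the muscle crush. In each, tissue of 3 or 4 mice was pooled and nuclei were sorted by Sytox staining, so a condition was 1 library with no replicate. No test between conditions or populations was therefore made, nuclei were not treated as replicates, and the 95% intervals in brackets are exact (Poisson for levels, Clopper-Pearson for shares, conditional binomial for ratios) and cover counting error only. Because the UMIs of the 38 genes sat in few nuclei, the spread between nuclei was wider than these intervals.

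The day 5 table held 1446 barcodes and 5899407 UMIs. After the limits of the study (200 to 5000 genes, under 5% mitochondrial and under 2% ribosomal protein UMIs), 1127 nuclei with 4337337 UMIs remained, from 500 to 22993 UMIs each with a median of 2364. Of the barcodes, 33 also occurred in the day 1 library and 29 of those were among the retained nuclei. Scrublet marked 3 nuclei (0.266%), a share so low that doublets have to be taken as present. Myogenic and myofibre nuclei were kept. Populations were named from defining markers: all 11 erythroid-like nuclei held erythroid markers, 8 of 8 endothelial and 25 of 26 skeletal markers were at least 1.5-fold above the other nuclei, as were 16 of 21 macrophage markers and 10 of 10 myofibre markers. The dendritic-like name was the weakest, with 4 of 8 markers past that fold, Clec9a and Xcr1 at 0, and a marker UMI in 14 of 27 nuclei.

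The start sites of 4 members are shown because these genes carried many of the UMIs and because S and G2/M members differed in the short motifs held there. The windows are 300 bases, 250 before and 50 after the RefSeq start site (GRCm38.p6), printed 5′ to 3′ on the gene's strand. Pola1 encodes the catalytic subunit of DNA polymerase alpha (chrX:93632106-93632405, minus strand) and Hells a chromatin remodeller of replicating cells (chr19:38930740-38931039, plus strand). Diaph3 encodes a formin that acts on actin in the cleavage furrow (chr14:87141175-87141474, minus strand) and Mki67 the Ki-67 protein that coats mitotic chromosomes (chr7:135716330-135716629, minus strand). Capitals mark the searched strings on either strand, which did not overlap each other in these windows.
Pola1: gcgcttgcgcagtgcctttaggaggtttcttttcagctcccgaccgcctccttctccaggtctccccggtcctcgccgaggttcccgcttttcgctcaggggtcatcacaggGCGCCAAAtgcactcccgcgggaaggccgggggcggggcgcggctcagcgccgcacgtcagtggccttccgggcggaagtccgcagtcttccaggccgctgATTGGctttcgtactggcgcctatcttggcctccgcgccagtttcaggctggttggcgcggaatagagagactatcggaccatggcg
Hells: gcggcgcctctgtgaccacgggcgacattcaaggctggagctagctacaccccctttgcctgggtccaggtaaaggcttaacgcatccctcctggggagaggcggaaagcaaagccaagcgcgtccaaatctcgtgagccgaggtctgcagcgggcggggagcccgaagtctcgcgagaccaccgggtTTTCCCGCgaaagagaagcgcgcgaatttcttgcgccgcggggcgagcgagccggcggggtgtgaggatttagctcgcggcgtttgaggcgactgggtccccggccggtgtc
Diaph3: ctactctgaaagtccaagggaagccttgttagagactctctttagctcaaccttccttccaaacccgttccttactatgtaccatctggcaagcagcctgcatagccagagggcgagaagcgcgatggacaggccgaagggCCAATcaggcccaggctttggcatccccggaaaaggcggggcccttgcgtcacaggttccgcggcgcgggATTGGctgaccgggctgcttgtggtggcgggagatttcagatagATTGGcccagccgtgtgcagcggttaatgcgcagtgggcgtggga
Mki67: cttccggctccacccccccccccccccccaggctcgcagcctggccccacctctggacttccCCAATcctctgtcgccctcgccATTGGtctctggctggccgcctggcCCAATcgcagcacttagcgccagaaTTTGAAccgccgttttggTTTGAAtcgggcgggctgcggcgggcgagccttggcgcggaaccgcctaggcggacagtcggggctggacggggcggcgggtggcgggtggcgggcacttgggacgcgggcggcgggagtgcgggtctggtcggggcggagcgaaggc
An E2F string (TTTCCCGC, TTTGGCGC, TTTCGCGC or TTTGCCGC) was found in Pola1 and Hells, CCAAT in Pola1, Diaph3 and Mki67, and a CHR string (TTTGAA or TTTAAA) in Mki67 alone of these 4.

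Over the members, 33 of 38 had such a window (Mcm4, Atad2, Aurkb, Ccna2 and Tpx2 had none). An E2F string lay in 5 of 11 S members (45.5%) and in 1 of 22 G2/M members (4.55%, Cdk1), beside 2.60% of the 27025 genes with a window. A CHR string lay in 3 of 11 S members (27.3%) and in 19 of 22 G2/M members (86.4%), beside 30.6% of all genes. CCAAT was found in 9 of 11 S members (81.8%) and in 19 of 22 G2/M members (86.4%), beside 41.1% of all genes. Both CHR and CCAAT were present in 17 of 22 G2/M members (77.3%), beside 13.4% of all genes. These are matches of letters, not binding sites.

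All 38 members were detected, each with at least 10 UMIs. Together they gave 5789 UMIs in the retained nuclei, a level of 1335 CPM (UMIs scaled to a common total of counts; 1301 to 1370). The S members gave 458 CPM (438 to 478) and the G2/M members 877 CPM (849 to 905). The sum leaned on few genes. Diaph3 gave 765 UMIs in 149 nuclei, Pola1 642 UMIs in 202 nuclei and Mki67 396 UMIs in 115 nuclei, followed by Top2a, the topoisomerase that untangles replicated chromosomes, with 388 UMIs in 95 nuclei. Diaph3 and Pola1 are long genes of 485.869 kb and 327.389 kb, and nuclear RNA was counted over introns as well as exons. Per kb of gene the order was different: Pcna, the sliding clamp of the replication fork, had 3.66 CPM per kb, Mki67 3.44 and Top2a 2.86, against 0.363 for Diaph3 and 0.452 for Pola1. Cdc20, the activator of the anaphase-promoting complex, was the member with the fewest UMIs, 20 in 15 nuclei.

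The UMIs were held by a small share of the nuclei. No UMI of any member was read in 480 nuclei, and 29 nuclei (2.57%) held 50.5% of all member UMIs. To compare nuclei of unequal depth, each was thinned to 500 UMIs, which no retained nucleus fell short of. In the thinned nuclei 818 had 0 member UMIs, 169 had 1 and 140 had at least 2. These 140 (12.4%; 10.6 to 14.5) are called member-rich below, and they held 74.9% of the member UMIs and 14.8% of all UMIs. The mean share over all possible draws of 500 UMIs was 11.2%, below the share in the draw used. Without thinning, 34.8% of nuclei had at least 2 member UMIs. The median depth was 2089.5 UMIs in member-rich nuclei and 2526 in the 818 nuclei with 0. Myofibre-like and neutrophil-like nuclei, which were taken as not dividing, gave the background of this measure. Together 3 of 185 were member-rich (1.62%; 0.336 to 4.67) and their level was 199.8 CPM, at median depths of 5715.5 and 757 UMIs. Apart, they were at 154 and 636 CPM. That neutrophil-like nuclei do not divide was not tested, and 1 of them held 11 S and 5 G2/M UMIs. Osteoclast-like nuclei had also been planned as background but are not in the sum of 185. Of them 3 of 31 were member-rich (9.68%; 2.04 to 25.8).

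The member level differed between populations by far more than the counting error, and the order ran from erythroid-like nuclei to myofibre-like nuclei. Erythroid-like nuclei, the nucleated precursors of red cells, were highest at 15004 CPM (13048 to 17171), with 211 member UMIs in 11 nuclei and 7 nuclei member-rich (63.6%; 30.8 to 89.1). Endothelial-like nuclei followed at 2803 CPM (2565 to 3057), with 9 of 37 member-rich (24.3%; 11.8 to 41.2). Skeletal lineage-like nuclei, which take in stem/progenitor, fibrogenic, osteoblast and chondrocyte markers, were at 1976 CPM (1891 to 2064), with 40 of 177 member-rich (22.6%; 16.7 to 29.5). Myogenic progenitor-like nuclei were at 1874 CPM (1688 to 2076), with 4 of 27 member-rich (14.8%; 4.19 to 33.7). Macrophage/monocyte-like nuclei, the most numerous, were at 1249 CPM (1195 to 1306), with 33 of 355 member-rich (9.30%; 6.49 to 12.8). The intervals of the share in erythroid-like, endothelial-like, skeletal and macrophage/monocyte-like nuclei lay above that of the pooled background (0.336 to 4.67%), while that of the myogenic progenitor-like nuclei overlapped it. The macrophage/monocyte-like interval did overlap that of neutrophil-like nuclei alone (2.30%; 0.280 to 8.06). For macrophage/monocyte-like nuclei, a share above the pooled background also did not hold under every setting. Their share was 4.12% with the cell cycle genes kept in the clustering. The measured genes could take part in forming those classes, so this share cannot decide the question. The erythroid-like class then held 32 nuclei at a median of 4216.5 UMIs, beside 11 at 1132 in the main run. A minimum of 500 genes or a mitochondrial limit of 0.5% gave a macrophage/monocyte-like share of 9.78% or 8.73%. It was 9.71% or 10.4% in neutrophil-like nuclei. Every cluster took a name under those limits, and the neutrophil-like class held 103 or 115 nuclei against 87 in the main run. Beside the osteoclast-like share (9.68%; 2.04 to 25.8), only the erythroid-like interval lay above, and the macrophage/monocyte-like share was no higher. Skeletal and myogenic levels overlapped in their intervals, so these neighbours in the order did not differ beyond counting error.

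Lower levels were found in the other named populations. Osteoclast-like nuclei were at 747 CPM (636 to 872) with 3 of 31 member-rich, and neutrophil-like nuclei at 636 CPM (467 to 846) with 2 of 87. Dendritic-like nuclei were at 481 CPM (335 to 669) with 1 of 27 member-rich. Lymphoid-like nuclei were at 428 CPM (279 to 627) with 0 of 32, which allows a share of up to 9.38% by a floor of 3 nuclei and 10.9% by the exact interval. The osteoclast, neutrophil, dendritic and lymphoid intervals overlap from one neighbour to the next. Myofibre-like nuclei were lowest at 154 CPM (126 to 186), with 1 of 98 member-rich. Their median depth of 5715.5 UMIs was among the highest, against 1132 for erythroid-like, 3435 for endothelial-like, 3898 for skeletal and 3819 for macrophage/monocyte-like nuclei.

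Averaged over all draws of 500 UMIs, the member-rich share was 67.3% for erythroid-like, 23.4% for endothelial-like, 19.7% for myogenic progenitor-like, 18.4% for skeletal lineage-like and 8.39% for macrophage/monocyte-like nuclei. The myogenic and skeletal shares thus changed places. Single nuclei weighed heavily in the small populations. A single myogenic progenitor-like nucleus with 175 member UMIs carried that level, which was 1063 CPM without it. A single osteoclast-like nucleus with 67 member UMIs did the same, with 458 CPM left. The level without the nucleus richest in member UMIs was 11368 CPM for erythroid-like, 2126 for endothelial-like and 1852 for skeletal lineage-like nuclei, and 429 CPM for neutrophil-like nuclei. The class named erythroid-like was highest and that named myofibre-like lowest under every alternative run. In several runs the erythroid-like class again held 11 nuclei at 15004 CPM, so those runs add nothing to its place. In others it took in more nuclei: 58 at 2951 CPM with a minimum of 500 genes, beside 2784 CPM in endothelial-like nuclei. With a mitochondrial limit of 0.5% it held 43 at 4558 CPM. The neutrophil-like level was 1339 and 1677 CPM under those limits, where every cluster took a name. With a minimum of 500 genes, Clic6 and Grm3 were among the leading genes of the erythroid-like class and Hspa1a of the neutrophil-like class. In the main run these genes were among the leading genes of clusters that stayed unnamed, so the classes were not the same. With the cell cycle genes kept in the clustering, the macrophage/monocyte-like level was 433 CPM, in classes that the measured genes could help to form. The dendritic-like level reached 1769 CPM when genes that accompany the members were also kept out of the clustering.

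**Figure D1:**
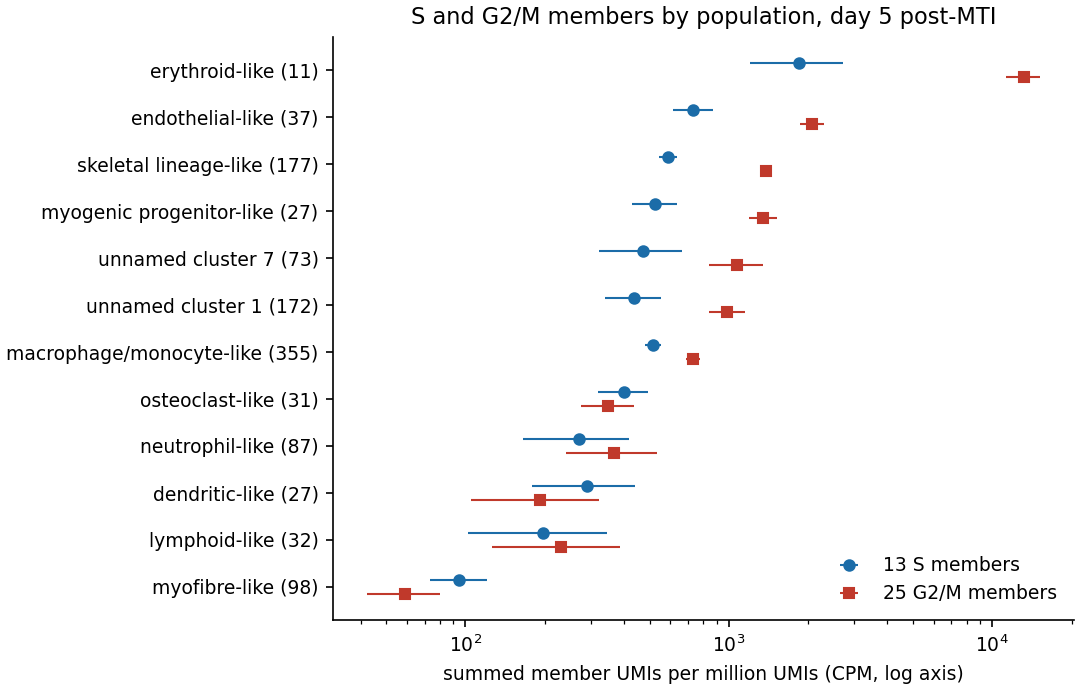
Summed level of the 13 S members (circles) and the 25 G2/M members (squares) in each population of the day 5 library, in CPM on a log axis, with exact 95% Poisson intervals as bars and the number of nuclei in brackets. G2/M members run from 58.8 CPM in myofibre-like to 13155 CPM in erythroid-like nuclei, and S members from 94.7 to 1849 CPM.

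Of the nuclei, 245 were in 2 clusters that stayed unnamed because no marker list met the rule for a name (cluster 1, 172 nuclei, median 685 UMIs; cluster 7, 73 nuclei, median 796 UMIs). Macrophage/monocyte markers were at 4450 CPM on 302 UMIs in cluster 7, beside 9350 CPM in macrophage/monocyte-like nuclei and 1241 CPM in cluster 1. The member levels of clusters 1 and 7 were 1421 CPM (1243 to 1618) and 1547 CPM (1265 to 1873), near that of all nuclei, and 30 and 10 of their nuclei were member-rich. They held 28.6% of the member-rich nuclei between them, so a part of the member-rich nuclei could not be given a lineage. The skeletal lineage also held 28.6% of the member-rich nuclei, from 15.7% of all nuclei. Macrophage/monocyte-like nuclei held 23.6% of them, from 31.5% of all nuclei. In the plot of shares by population, the macrophage/monocyte-like share lies below the skeletal and endothelial shares and above that of the myofibre-like nuclei.

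**Figure D2:**
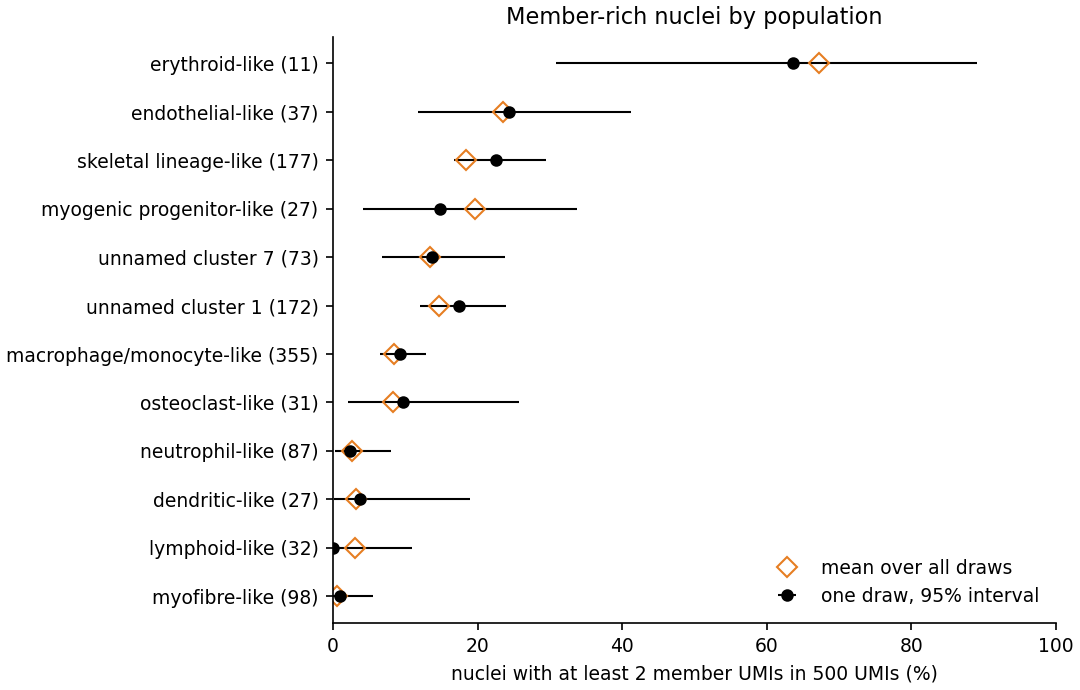
Share of nuclei with at least 2 member UMIs after thinning to 500 UMIs, in percent, by population, as 1 draw with 95% Clopper-Pearson intervals (filled points) and as the mean over all draws (open diamonds). In the draw the shares run from 0 of 32 lymphoid-like nuclei to 7 of 11 erythroid-like nuclei (63.6%).

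By role, the S members split into subunits of the replicative helicase (licensing), genes of the fork and its nucleotide supply, and genes of chromatin and repair behind it. The licensing genes Mcm2, Mcm3, Mcm4, Mcm5 and Mcm6 gave 277 UMIs, and their summed level was 77.1 CPM in macrophage/monocyte-like, 71.3 in myogenic progenitor-like, 66.1 in skeletal and 33.0 in endothelial-like nuclei. Erythroid-like nuclei were at 284 CPM (77.5 to 728, on 4 UMIs) and osteoclast-like nuclei at 102 CPM (64.0 to 155). The intervals overlapped among these populations, apart from endothelial-like (12.1 to 71.9) against erythroid-like nuclei, so no order was established. Fork and supply genes (Pcna, Pola1, Rrm1, Rrm2 and Tyms) gave 956 UMIs and 418.5 CPM in endothelial-like, 290.3 in myogenic progenitor-like, 278 in skeletal and 249.8 in macrophage/monocyte-like nuclei. Pola1 made up most of them, at 237 CPM in endothelial-like, 175 in skeletal, 191 in macrophage/monocyte-like and 14.4 in myofibre-like nuclei. Atad2, a chromatin ATPase, was at 143 CPM in endothelial-like, 125 in skeletal, 94.3 in macrophage/monocyte-like and 5.74 in myofibre-like nuclei. In neutrophil-like nuclei Atad2 was at 122 CPM on 9 UMIs, the highest member there. Brip1 was at 71.6 CPM in endothelial-like, 38.9 in skeletal and 56.1 in macrophage/monocyte-like nuclei, and Hells at 66.1, 78.8 and 40.1 CPM in the same order.

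Summed by role, the G2/M members were higher in endothelial-like and skeletal nuclei than in macrophage/monocyte-like nuclei, except that the spindle checkpoint kinases Bub1 and Bub1b were at 46.7 CPM in skeletal and 45.9 CPM in macrophage/monocyte-like nuclei. Cytokinesis genes (Anln, Diaph3 and Ect2) summed to 534 CPM in endothelial-like, 450.4 in skeletal, 316 in myogenic progenitor-like and 219 in macrophage/monocyte-like nuclei. Diaph3 led them, at 446, 327, 224 and 143 CPM. The 8 genes of the spindle and its motors gave the most UMIs of any role, 1105, with 595 CPM in endothelial-like, 407 in myogenic progenitor-like, 399.8 in skeletal and 204 in macrophage/monocyte-like nuclei. Among them Kif11, the motor that pushes the spindle poles apart, was at 105 CPM in endothelial-like, 71.0 in skeletal and 52.9 in macrophage/monocyte-like nuclei. Tpx2, which nucleates spindle microtubules, was at 99.1, 73.0 and 28.0 CPM in those populations, and Kif20b, a kinesin of late mitosis, at 60.6, 66.1 and 33.8 CPM. Cenpe, the kinesin of the kinetochore, was at 132 CPM in endothelial-like, 84.6 in skeletal and 29.9 in macrophage/monocyte-like nuclei, and 427 CPM in erythroid-like nuclei on 6 UMIs. The cyclins A2, B1 and B2 with Cdk1 and Cdc20 summed to 110 CPM in endothelial-like, 70.0 in skeletal, 86.6 in myogenic progenitor-like and 26.8 in macrophage/monocyte-like nuclei. The Aurora kinases were scarce everywhere, with 52 UMIs in all, and stood at 38.5 CPM in endothelial-like, 20.4 in skeletal and 8.92 in macrophage/monocyte-like nuclei. Myofibre-like nuclei had 0 UMIs of Bub1, Bub1b, Aurka and Aurkb, where 3 UMIs would be 4.31 CPM.

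In the skeletal lineage, 11 of 38 members were at least 2-fold above the other nuclei and none was 2-fold lower, where 15.7% of the 15213 genes with at least 10 UMIs were that much higher. By phase these were 1 of 13 S members and 10 of 25 G2/M members. The median ratio was 1.71 over the members and 0.878 over all genes tested. Cdk1, the kinase that drives entry into mitosis, had the largest ratio: 31 of its 63 UMIs lay in skeletal nuclei, 30.2 CPM and 3.12-fold the level elsewhere. Diaph3 was at 327 CPM there (336 UMIs), 2.52-fold the other nuclei. Anln, the anillin scaffold of the contractile ring, was at 81.7 CPM (2.73-fold), and Aurka, the kinase of the spindle poles, at 11.7 CPM (2.58-fold, on 12 UMIs). The S member past 2-fold was Hells at 78.8 CPM (2.19-fold). The subunits of the replicative helicase stood on both sides of 1, at 0.696-fold for Mcm2 and 0.724-fold for Mcm6 and at 1.26-fold for Mcm5, 1.38-fold for Mcm3 and 1.78-fold for Mcm4, on 8 to 18 UMIs each.

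In endothelial-like nuclei 19 of 38 members were at least 2-fold higher, where 13.6% of genes were. Another 5 were 2-fold lower, a count with no share of all genes beside it. The median ratio was 1.99 over the members and 0.756 over all genes tested. Of the 509 member UMIs, 2 of the 37 nuclei held at least 50%, so the ratios here lean on few nuclei. G2/M members made up 17 of the 19. Pcna had the largest ratio, with 16 UMIs, 88.1 CPM and 7.32-fold the other nuclei. Top2a reached 347 CPM on 63 UMIs (4.44-fold), Cdk1 66.1 CPM on 12 UMIs (5.38-fold) and Hmmr, a spindle protein that also binds hyaluronan, 77.1 CPM on 14 UMIs (4.58-fold). Of the licensing subunits, Mcm2, Mcm4 and Mcm5 had 0 UMIs there, where 3 UMIs would be 16.5 CPM, more than their level over all nuclei, so their absence could not be told at this depth.

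In myogenic progenitor-like nuclei 9 of 38 members were at least 2-fold higher, where 14.3% of genes were. Ccna2, the cyclin of S phase and G2, had the largest ratio, 4.39-fold, on 5 UMIs. Top2a was at 183 CPM on 36 UMIs (2.16-fold) and Bub1, a kinase of the spindle checkpoint, at 40.7 CPM on 8 UMIs (2.68-fold). As given above, a single nucleus held 175 of the 368 member UMIs of this population.

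In the 11 erythroid-like nuclei 31 of 38 members were at least 2-fold higher, 9 of 13 S and 22 of 25 G2/M members, where 12.5% of genes were; most genes had no UMI among the few read there. Mki67 alone gave 50 of the 211 member UMIs, 3555 CPM against 165 CPM in endothelial-like, 126 in skeletal, 74.5 in macrophage/monocyte-like and 2.87 in myofibre-like nuclei. Diaph3 was at 2062 CPM on 29 UMIs and Top2a at 1280 CPM on 18 UMIs. The largest ratio was that of Ccnb2, a B-type cyclin, at 48.5-fold on 6 UMIs. 6 members had 0 UMIs, where 3 UMIs would be 213 CPM.

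In macrophage/monocyte-like nuclei no member was 2-fold higher, where 12.1% of genes were. Another 3 G2/M members were 2-fold lower, a count with no share of all genes beside it. The median ratio was 0.792 over the members and 0.823 over all genes tested. The largest ratio was that of a licensing gene, Mcm6, at 32.5 CPM on 51 UMIs (1.91-fold). Brip1, a helicase of repair at stalled forks, was at 56.1 CPM (1.80-fold) and Pola1 at 191 CPM (1.54-fold). Cdc20 was at 1.27 CPM on 2 UMIs (0.196-fold) and Cdk1 at 7.01 CPM on 11 UMIs (0.373-fold). S members as a group were at 517 CPM (482 to 554) against 588 CPM (542 to 636) in the skeletal lineage, and G2/M members at 732 CPM (690.3 to 776) against 1388 CPM (1317 to 1462).

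In osteoclast-like nuclei 22 of 38 members were at least 2-fold lower, 20 of 25 G2/M and 2 of 13 S members, where 42.4% of genes were. Mcm2 was the member with the largest ratio in osteoclast-like nuclei, at 37.1 CPM on 8 UMIs (4.14-fold), and Mcm6 was at 41.8 CPM on 9 UMIs (1.94-fold). As given above, a single nucleus held 67 of the 161 member UMIs of the osteoclast-like population. In neutrophil-like nuclei 27 members were 2-fold lower, where 55.1% of genes were; 3 UMIs would be 40.6 CPM there. In myofibre-like nuclei 36 of 38 members were 2-fold lower, where 40.7% of genes were, and 3 UMIs would be 4.31 CPM. Top2a was at 1.44 CPM there on 1 UMI and Diaph3 at 7.18 CPM on 5 UMIs. Rrm1, the large subunit of ribonucleotide reductase, was an exception at 33.0 CPM on 23 UMIs (1.04-fold), and the other was Ccnb1 on 3 UMIs (0.682-fold; 0.131 to 2.26).

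**Figure D3:**
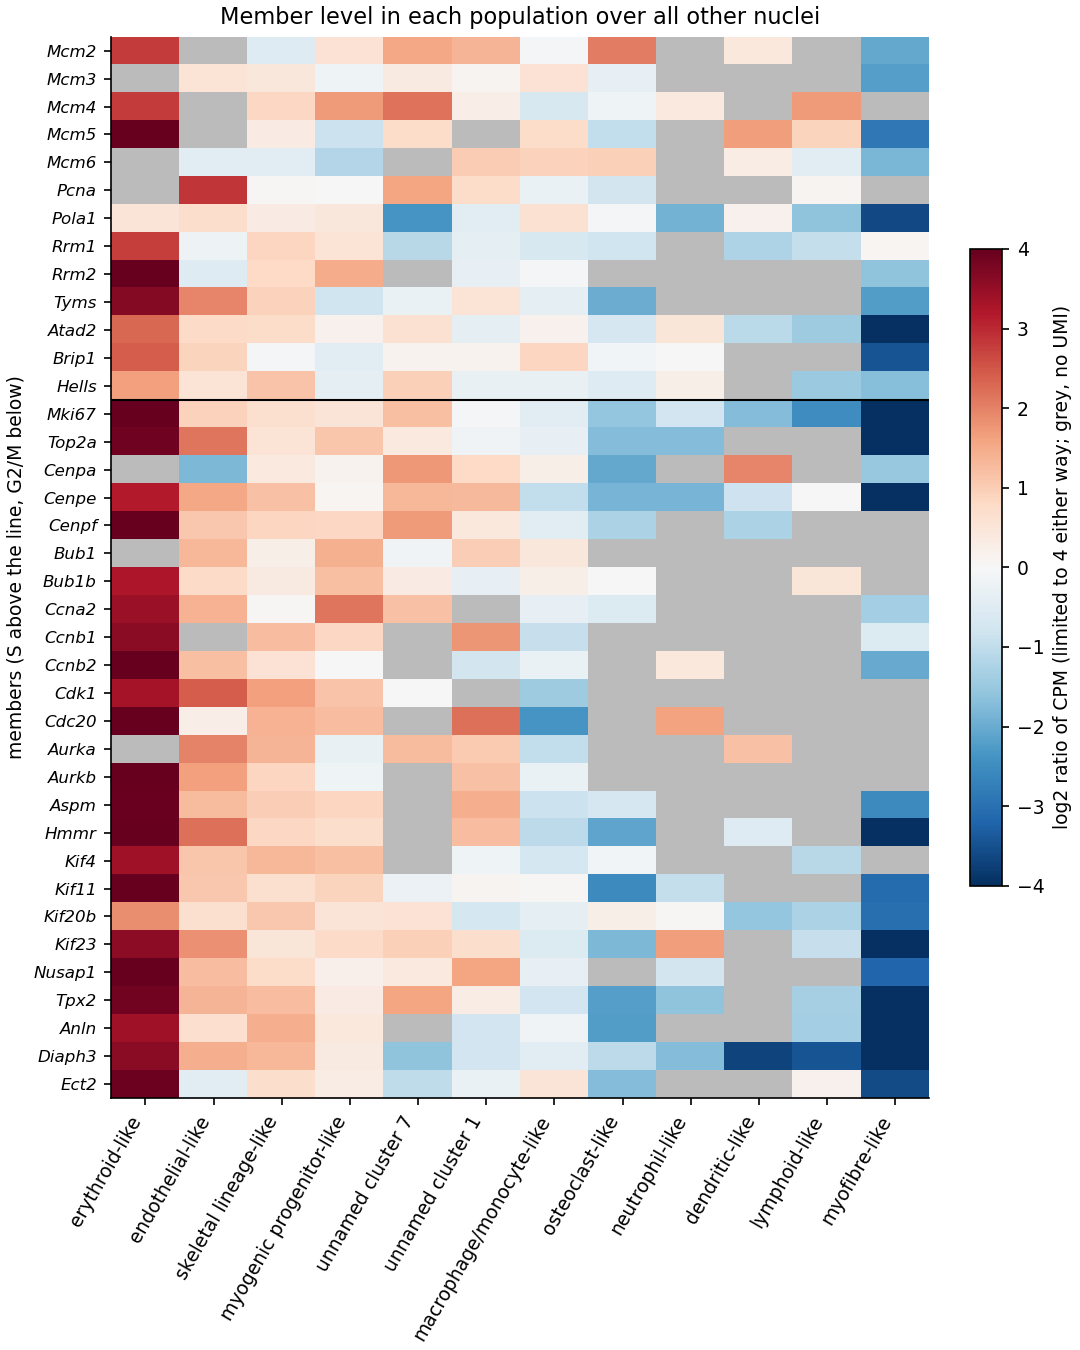
Level of each of the 38 members (lines, S members above the black line and G2/M members below it) in each population over its level in all other nuclei of the day 5 library, as the log2 ratio of CPM held within 4 either way, grey where no UMI was read. Red fills most of the erythroid-like, endothelial-like and skeletal columns below the black line, and the myofibre-like column is blue or grey apart from Rrm1 (1.04-fold).

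The balance of S over G2/M UMIs differed between populations. It was 0.141 in erythroid-like (0.0894 to 0.213), 0.354 in endothelial-like (0.288 to 0.432), 0.423 in skeletal lineage-like (0.384 to 0.466) and 0.707 in macrophage/monocyte-like nuclei (0.645 to 0.774). It was above 1 in myofibre-like nuclei (1.61; 1.07 to 2.44), while the intervals of osteoclast-like (1.15; 0.831 to 1.58) and dendritic-like nuclei (1.5; 0.727 to 3.19) held 1. The myofibre-like value leaned on 1 gene: Rrm1 gave 23 of the 66 S UMIs there, beside 41 G2/M UMIs. In myogenic progenitor-like nuclei the balance was 0.389, but 1.01 without the nucleus of 6 S and 169 G2/M UMIs. Without the richest nucleus of each, it was 0.774 in osteoclast-like, 0.215 in erythroid-like, 0.508 in endothelial-like, 0.467 in skeletal, 0.409 in neutrophil-like and 1.5 in lymphoid-like nuclei. Single nuclei were read by this balance where they had at least 10 member UMIs, which held for 96 nuclei with a median depth of 6214 UMIs. S members made up under 20% of the member UMIs in 36 of them and at least 80% in 11, with 14, 20 and 15 nuclei in the bins between. The median S share was 33.7% in 35 skeletal, 43.5% in 31 macrophage/monocyte-like, 24.2% in 7 endothelial-like, 48.7% in 6 myogenic progenitor-like and 4.64% in 6 erythroid-like nuclei. Skeletal nuclei covered nearly the whole span, from 0 to 92.9%, and macrophage/monocyte-like nuclei did too, from 0 to 95.7%.

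**Figure D4:**
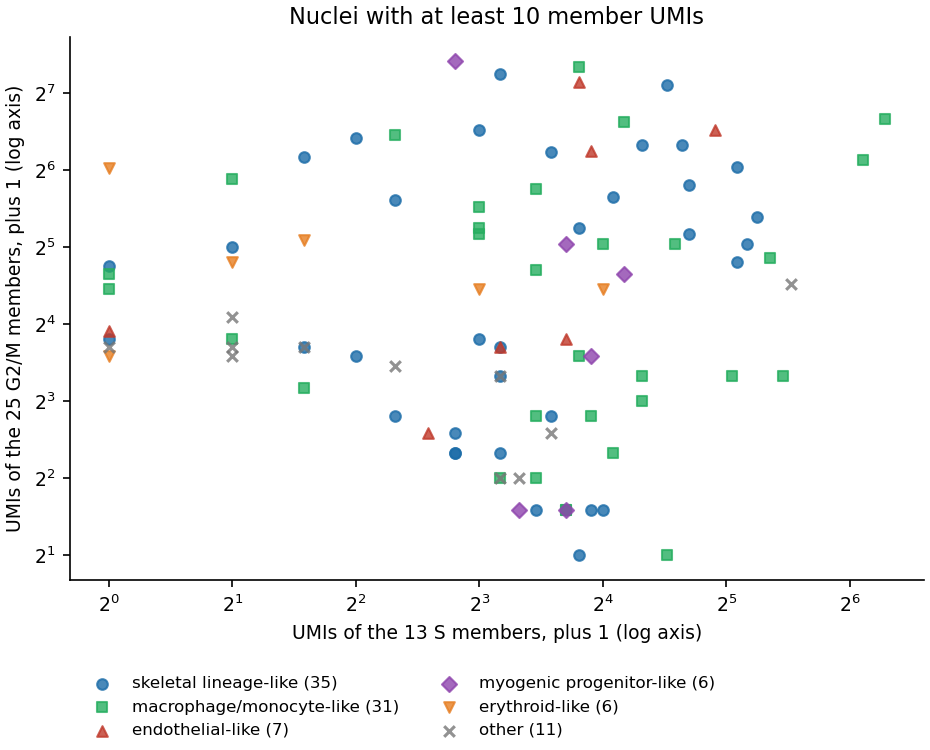
G2/M member UMIs against S member UMIs, each plus 1 and on log axes, for the 96 nuclei with at least 10 member UMIs, with colour and shape for the population. Nuclei lie along both axes: 36 have under 20% S member UMIs and 11 have at least 80%.

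Members were found together in the same nuclei. Mki67 had a UMI in 62 of 95 nuclei with Top2a (65.3%; 54.8 to 74.7) and in 53 of 1032 nuclei without it (5.14%; 3.87 to 6.66). Diaph3 had one in 55 of 95 nuclei with Top2a (57.9%) and in 94 of 1032 without (9.11%). Pola1, of S phase, had one in 52 of 95 (54.7%) and in 150 of 1032 (14.5%). Nuclei with Top2a were also deeper, with a median of 6126 against 2239.5 UMIs, and the part of depth in these shares was not tested.

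Other cell cycle genes, from lists that held none of the 38 members, showed where the rest of the pathway stood. In the skeletal lineage 31 of 63 other mitosis genes and 11 of 40 other replication genes were at least 2-fold higher, with medians of 2.00 and 1.52 beside 0.878 over all genes. Of all genes 15.7% were that much higher there. Of the other mitosis genes, Cenpp, a kinetochore subunit, was at 196 CPM (3.00-fold) and Smc4, a condensin subunit, at 197 CPM (2.10-fold). In endothelial-like nuclei the counts were 22 of 63 and 7 of 40, in myogenic progenitor-like nuclei 30 of 63 and 11 of 40, and in erythroid-like nuclei 41 of 63 and 20 of 40. The shares of all genes were 13.6%, 14.3% and 12.5% in the same order. In erythroid-like nuclei 21 of 63 and 19 of 40 were 2-fold lower. The median ratio over all genes was 0 there, so these counts are not read as a result about the lists. Genes 2-fold lower numbered 7 and 4 in endothelial-like and 4 and 5 in myogenic progenitor-like nuclei, with no share of all genes beside them. In macrophage/monocyte-like nuclei 1 of 63 and 1 of 40 were 2-fold higher, beside 12.1% of all genes. There 8 and 2 were 2-fold lower, again with no share of all genes beside them. The mitosis gene was Ncapg2, another condensin subunit, at 111 CPM (3.01-fold), a gene picked from its list by total UMIs. In myofibre-like nuclei 62 of 63 mitosis and 36 of 40 replication genes were 2-fold lower, beside 40.7% of all genes.

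Genes of the G1 checkpoint had orders of their own. Cdk6, a partner of D-type cyclins, was at 585 CPM in macrophage/monocyte-like (3.32-fold), 715 in osteoclast-like, 142 in skeletal and 82.6 in endothelial-like nuclei. Ccnd3, a D-type cyclin, was highest at 1777 CPM in lymphoid-like and 1340 CPM in neutrophil-like nuclei, with 577 in dendritic-like, 382 in myogenic progenitor-like, 148 in macrophage/monocyte-like, 101 in skeletal, 60.3 in myofibre-like and 16.5 in endothelial-like nuclei, and 0 UMIs in osteoclast-like nuclei. E2f7, a repressor of the E2F family, was at 160 CPM in endothelial-like nuclei (7.21-fold). E2f2 was at 996 CPM in erythroid-like nuclei (43.9-fold) and 6.81 CPM in skeletal nuclei. Among inhibitors, Rb1, the retinoblastoma protein, was at 80.7 CPM in the skeletal lineage (0.239-fold) and 418 CPM in macrophage/monocyte-like nuclei (2.12-fold). The next inhibitors by UMIs did not move together in the skeletal lineage. Btg1 was at 0.430-fold, Rbl2 at 0.831-fold, Cdkn1b at 1.09-fold and Rbl1 at 1.45-fold (1.06 to 1.96) there. In macrophage/monocyte-like nuclei these were at 2.37, 1.39, 1.24 and 1.34-fold.

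Member-rich nuclei were then set against the 818 nuclei with 0 member UMIs in the draw of 500, called member-free below. Without thinning, the member-free nuclei still held 860 member UMIs. The members themselves had chosen these nuclei, so that all 38 were 2-fold higher is a description, beside 12.3% of the 14565 genes tested. Genes of the same programmes that took no part in the choice were higher too: 62 of 62 other mitosis genes (median ratio 25.7) and 39 of 39 other replication genes (6.97), with a median of 1.00 over all genes. Of the G1 cyclins, CDKs and E2F factors 8 of 14 were 2-fold higher and 1 lower, and of the inhibitors 3 of 13 were higher and 3 lower. The counts of lower genes have no share of all genes beside them. Outside all lists the leading genes were Ankle1 (20 against 1 UMIs), BC030867, Olfr78, Ticrr, Cep55, Spag5, Depdc1b, Kifc1, Cdkn3, Hist1h1b, Ska1, Fanci, Sele, Pif1 and Nsl1. Ticrr, which acts at the start of replication, had 40 against 4 UMIs (48.4-fold; 17.5 to 186), Cep55, of the midbody, 57 against 6 (46.0-fold) and Hist1h1b, a linker histone made in S phase, 53 against 8 (32.1-fold). The UMIs of Olfr78 came from 1 member-rich nucleus and those of Sele, an endothelial selectin, from 3.

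Within the macrophage/monocyte-like population, 33 member-rich nuclei were compared with 285 that had 0 member UMIs. Arg1, which encodes arginase 1, was scarce in the former: it had 6 UMIs in 5 of 33 member-rich nuclei (30.2 CPM) and 1201 UMIs in 116 of 285 others (1015 CPM), a ratio of 0.0297 (0.0109 to 0.0649). Vcan, a matrix proteoglycan of monocytes, had 9 against 496 UMIs (0.108-fold) and F13a1, a transglutaminase of macrophages, 185 against 3227 (0.341-fold). Mrc1, the mannose receptor, differed less, at 861 against 1100.4 CPM (0.782-fold; 0.663 to 0.918). The other markers did not move together. Mertk (0.569-fold; 0.456 to 0.703) and Csf1r (0.626-fold; 0.418 to 0.908) were lower in member-rich nuclei. Msr1, a scavenger receptor, was higher (1.25-fold; 1.07 to 1.46), and Gpnmb (1.12-fold), Ms4a7 (0.982-fold) and the monocyte receptor Ccr2 (1.06-fold; 0.688 to 1.58) were near 1. The intervals of Adgre1, Cd68, C1qa, C1qb, Cd163, Trem2 and Plac8 held 1. Summed, the macrophage list was at 0.766-fold (0.716 to 0.819) and the monocyte list, most of it F13a1 and Vcan, at 0.347-fold (0.302 to 0.396). Over other definitions of the compared nuclei the Arg1 ratio ran from 0.0107 to 0.204, below 1 in each. Member-rich macrophage nuclei were deeper (median 5626 against 3601 UMIs), and the part of depth in these ratios was not tested.

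Regulators in the same nuclei went both ways, also among genes of one role. Ccne2, the E-type cyclin of S phase entry, had 20 UMIs in member-rich and 0 in member-free macrophage nuclei. Ccnd1 had 14 against 4 UMIs (20.8-fold; 6.55 to 87.0), E2f7 27 against 5 (32.2-fold; 12.2 to 107), E2f8 19 against 4 (28.3-fold; 9.40 to 114) and Rbl1, or p107, 41 against 36 (6.78-fold; 4.23 to 10.9). Ccnd3 went the other way, with 9 against 174 UMIs (0.308-fold; 0.139 to 0.598), and Btg2, an antiproliferative gene, had 0 against 34. Of the other inhibitors, Cdkn2c had 11 against 3 UMIs (21.8-fold; 5.77 to 122) and Rb1 was near 1 (1.04-fold; 0.819 to 1.31).

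Skeletal nuclei had the same directions for several of these genes, in 40 member-rich and 117 member-free nuclei (median depths 4405.5 and 3737 UMIs). Ccnd1 (0 against 7 UMIs; 0 to 1.63) and Btg2 (2 against 3 UMIs; 1.57-fold; 0.131 to 13.7) went the other way, with intervals that held 1. Ccnd3 had 10 UMIs in 8 nuclei against 77 UMIs in 39 nuclei (0.305-fold; 0.141 to 0.592). E2f7 had 18 against 5 UMIs (8.46-fold; 3.03 to 29.2), E2f8 16 against 1 (37.6-fold; 5.84 to 1577), Rbl1 35 against 22 (3.74-fold; 2.13 to 6.69) and Cdk2 13 against 7 (4.37-fold; 1.62 to 12.9). Ccng1, a p53 target, had 0 against 18 UMIs. Markers of stem/progenitor cells and fibroblasts were at 1113 CPM in member-rich and 1186 CPM in member-free skeletal nuclei (0.939-fold; 0.819 to 1.07). Prrx1 gave 254 of 305 and 573 of 764 of these UMIs (1.04-fold; 0.895 to 1.21), so the sum speaks mainly for Prrx1. Ly6a (0 against 8 UMIs), Cd34 (4 against 12), Dpp4 (6 against 30), Pi16 (0 against 9) and Pdgfra (41 against 132) were all lower. The interval of each held 1. Of the fibrogenic markers (1.20-fold together; 1.14 to 1.26), Col3a1 (1.58-fold), Col5a1 (1.31-fold) and Col8a1 (1.86-fold) were higher, and Postn (0.637-fold) and Aspn (0.439-fold) lower. Tenocyte markers were at 0.968-fold (0.659 to 1.40). The chondrocyte (1.20-fold) and osteoblast (0.265-fold) lists are given no direction, since Acan and Ibsp in them turned over with a second seed. The low counts of E2F and cyclin genes make the upper bounds wide.

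**Figure D5:**
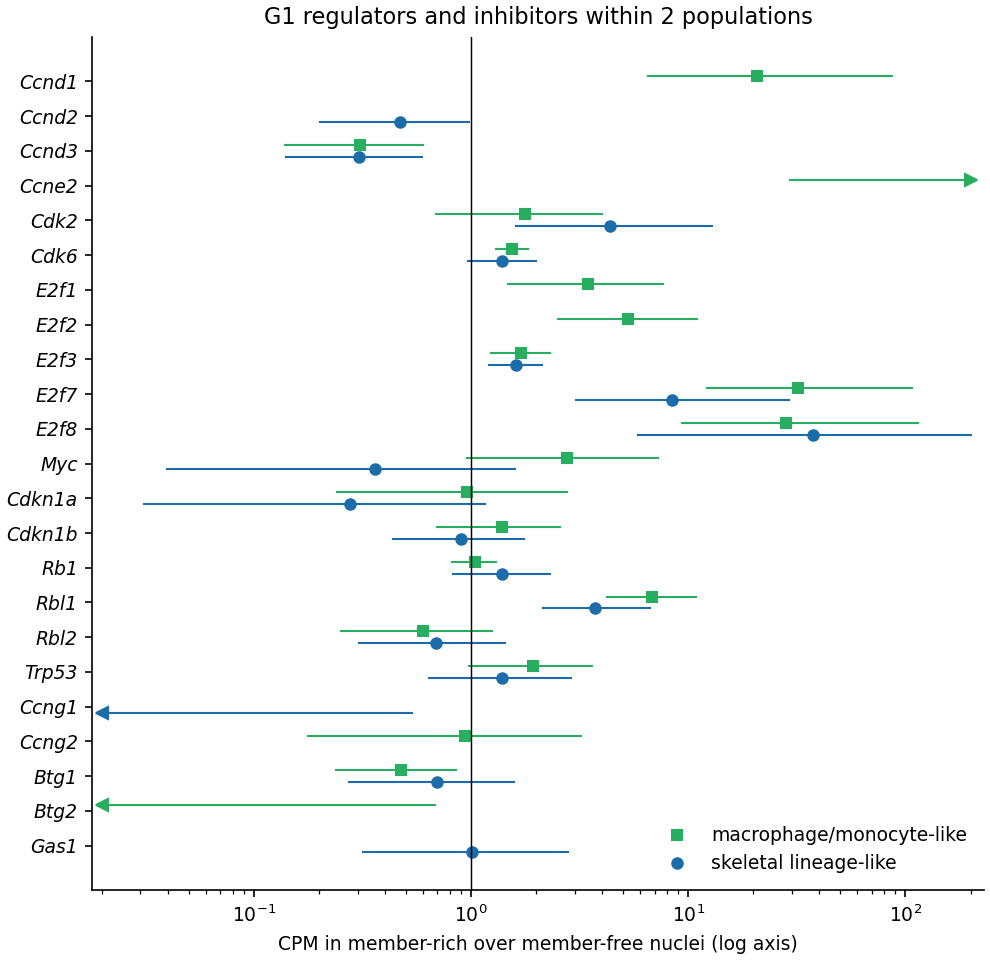
Ratio of member-rich over member-free nuclei (0 member UMIs in the draw of 500) for G1 regulators and inhibitors within skeletal lineage-like and macrophage/monocyte-like nuclei, on a log axis, with 95% conditional binomial intervals. Arrows mark a group with 0 UMIs, and the interval of E2f8 in skeletal nuclei runs past the axis. E2f7, E2f8 and Rbl1 lie above 1 and Ccnd3 below 1 in both populations (0.305 and 0.308).

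Clustering again within the immune and the skeletal nuclei, with the cell cycle genes left out, showed where the member-rich nuclei sat. In the immune subset a group of 18 nuclei (median 6622 UMIs) reached 9264 CPM (8752 to 9799), and 17 of the 18 were member-rich. Its leading genes were of the cell cycle, among them the members Rrm2 and Kif11 beside Ticrr and Ncapg. Cell cycle genes outside the lists could have formed this group, so its member level is a description only. Macrophage markers were at 4594 CPM in this group, Mrc1 at 720 CPM and Arg1 at 30.3 CPM. Another group of 76 nuclei led by Vcan, with Arg1 at 2947 CPM, had 170 CPM of members (124 to 227) and 0 member-rich nuclei, which allows up to 3.95% by a floor of 3 nuclei and 4.74% by the exact interval. In the other macrophage groups, Arg1 was at 83.7, 311, 500, 781 and 1249 CPM. In the same order, member-rich nuclei numbered 0 of 78, 5 of 32, 3 of 62, 8 of 64 and 0 of 32. Arg1 and the members thus had no single order over the groups. Among the macrophage clusters of the whole library, the level ran from 279 CPM (234 to 330.4) in 126 nuclei to 958 CPM (873 to 1049) in 111 and 2278 CPM (2158 to 2403) in 118. The skeletal nuclei parted into 110 nuclei at 2043 CPM (1952 to 2138; 26 member-rich, 23.6%) and 67 nuclei at 1368 CPM (1152 to 1614; 14 member-rich, 20.9%). Those had median depths of 7710 and 1418 UMIs, so depth moved with the level, and its part was not tested.

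The limits on nuclei left out some with many member UMIs. The 21 barcodes with over 5000 genes had 2045 CPM (1932 to 2163) and 15 of them had at least 10 member UMIs. The 261 barcodes with at least 5% mitochondrial UMIs had 949 CPM (887 to 1015). With no upper gene limit the skeletal level was 2214 CPM and the endothelial-like level 2055 CPM, which turned the order of the pair.

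The day 1 library was far shallower, and day and injury differed together, so its values are given beside those of day 5 without a comparison. Its 2405 nuclei held 1202240 UMIs with a median of 409, and 715 member UMIs, 595 CPM (552 to 640). S members were at 262 CPM and G2/M members at 333 CPM, and all 38 members had a UMI. No day 1 nucleus had more than 5 member UMIs. The 43464 barcodes with under 200 genes, most of which would be empty droplets, had 538 CPM (521 to 556), close to the level of the day 1 nuclei, and also held at most 5 member UMIs each. Over all 48987 barcodes of that library, 3 held at least 10 member UMIs and 1 of those held 18, all outside the nuclei that passed its limits. In the nuclei that passed, the member UMIs could not be told from free RNA by their level.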

How the data were processed

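The authors aligned reads to mm10 with Cell Ranger (per the submitters' processing notes and the study's methods) and deposited unnormalized counts of UMIs for each gene in each nucleus, introns included; the labels also name a human reference, but every gene identifier was mouse. Depth was 500 to 22993 UMIs per retained day 5 nucleus, which sets the precision of the intervals.

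From the counts, nuclei with 200 to 5000 genes, under 5% mitochondrial and under 2% ribosomal protein UMIs were kept (day 1: 0.5% and 2.5%). They were clustered with Seurat 5.3.0 in R 4.3.3 (2000 variable genes, 30 principal components, resolution 1.0; immune subset 20 components and resolution 1.5, skeletal subset 15 and 0.5). The variable genes held neither the 38 members nor 134 further cell cycle genes. A cluster was named from at least 3 markers past 1.5-fold, and left unnamed where leading genes or depth went against a name. Myogenic nuclei, which the study removed, were kept. Nuclei were thinned to 500 UMIs with a fixed seed, and member-rich means at least 2 member UMIs. Levels are CPM of summed counts, and folds were taken where a gene had at least 10 UMIs. Scanpy 1.11.5 ran scrublet and scipy 1.17.1 gave the exact 95% intervals. The steps were tested on simulated data.

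Named genes were the 12 members with the most UMIs, the member with the largest ratio in the populations described gene by gene, and the 15 leading genes of member-rich nuclei with at least 20 UMIs. From the pathway lists, some of the 5 genes with the most UMIs in each were named, and none from the replication list. Any other gene named was chosen after its values were seen. Members and lists were chosen with earlier results of these data known. With 1 library per condition no test was made. Alternatives changed the limits, clustering, naming, thinning, members summed and folds; leaving out single nuclei, the accompanying genes, the mean over draws and other definitions of member-rich were added after seeing the data.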

Additional observations from a re-analysis of the deposited data

How the results depend on the processing

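No paired analysis was possible because each condition had 1 sample, and no replicate could be left out. Of 322 alternative values, 234 moved by less than the counting interval or stayed within 1.5 times. With no upper gene limit the level was 1403 CPM over all nuclei, 2214 in skeletal, 2055 in endothelial-like and 204 in myofibre-like nuclei. Without the 3 members with the most UMIs (Diaph3, Pola1 and Mki67) it was 919 CPM over all nuclei, 1347 in skeletal, 842 in macrophage/monocyte-like, 1955 in endothelial-like, 1324 in myogenic progenitor-like, 9173 in erythroid-like, 487 in osteoclast-like and 275 in dendritic-like nuclei, and the member-rich share was 9.32% of all, 14.7% of skeletal and 0% of dendritic-like nuclei. Without the nucleus with the most member UMIs it was 1298 CPM over all nuclei, 1852 in skeletal, 1147 in macrophage/monocyte-like, 2126 in endothelial-like, 1063 in myogenic progenitor-like, 11368 in erythroid-like, 458 in osteoclast-like and 429 in neutrophil-like nuclei. A mitochondrial limit of 0.5% gave 4043 CPM in endothelial-like, 4558 in erythroid-like and 1677 in neutrophil-like nuclei, with member-rich shares of 27.9% and 10.4% in the latter pair. A minimum of 500 genes gave 2951 and 1339 CPM in that pair, with 24.1% and 9.71% member-rich. Every cluster took a name under either limit, and the classes of that pair held more nuclei than in the main run. With cell cycle genes kept in the clustering the levels were 433 CPM in macrophage/monocyte-like (4.12% member-rich), 9800.4 in erythroid-like (90.6%) and 458 in osteoclast-like nuclei. The measured genes could help to form those classes, which did not hold the same nuclei as in the main run. The erythroid-like class held 32 nuclei there, against 11. Assigning nuclei one by one gave 1181 CPM in macrophage/monocyte-like, 1056 in myogenic progenitor-like, 1036.5 in osteoclast-like and 1085 in dendritic-like nuclei (0% member-rich). Leaving accompanying genes out of the clustering gave 1131 CPM in macrophage/monocyte-like, 1081 in osteoclast-like and 1769 in dendritic-like nuclei. In myofibre-like nuclei resolution 0.5 gave 543 CPM and resolution 2.0 gave 195 CPM. The cause of these moves was not tested.

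Thinning to 1000 UMIs left out every nucleus below that depth, so most neutrophil-like nuclei (median 757 UMIs) were not counted. On the nuclei left, the shares were 18.2% over all, 11.5% in lymphoid-like and 17.6% in neutrophil-like nuclei. Without thinning they were 34.8% over all, 57.1% in skeletal, 33.8% in macrophage/monocyte-like, 67.6% in endothelial-like, 70.4% in myogenic progenitor-like, 48.4% in osteoclast-like, 21.9% in lymphoid-like, 44.4% in dendritic-like and 25.5% in myofibre-like nuclei. With at least 1 member UMI they were 27.4% over all, 33.9% in skeletal, 19.7% in macrophage/monocyte-like, 51.4% in endothelial-like, 25.8% in osteoclast-like, 18.8% in lymphoid-like, 22.2% in dendritic-like, 16.1% in neutrophil-like and 10.2% in myofibre-like nuclei. With at least 3 they were 7.19% over all, 14.1% in skeletal, 5.63% in macrophage/monocyte-like and 0% in myofibre-like nuclei, and a second seed also gave 0% in the last. At a ratio of 1.5 rather than 2, 25 members were higher in skeletal, 5 in macrophage/monocyte-like and 16 in myogenic progenitor-like nuclei. The share of all genes past 1.5-fold was not taken, so these counts are not read as a result about the members. Within skeletal nuclei, Ibsp (0.0249-fold in member-rich over member-free nuclei) and Acan (2.47-fold) turned over with a second seed, to 5.28-fold and 0.71-fold, and Ibsp had no UMI to compare with at 10 unthinned member UMIs. These genes rested on few nuclei and are given no direction. The small populations, a shallow day 1 library and 1 library per condition limit every value here.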
